A study of Zea mays with 18 samples.

Results

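A group of 98 genes was chosen by its levels in RNA sequencing of the quiescent centre of maize (Zea mays) root tips. Counts were scaled to CPM, that is, to a library total of 1000000 counts. The 98 genes were selected on these values: the highest CPM over A_0h replicates 1 and 2 and S_12h replicate 3 had to be at least 3 times lower than the lowest CPM over the other 15 libraries, and that lowest CPM at least 3. They are 98 of 28724 gene IDs in all, and 98 of the 14112 IDs that held at least 3 CPM in each of those 15 libraries. Because every one of the 18 libraries entered this choice, the low level in the 3 libraries is a description, and no test result is offered as evidence for it.

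The seedlings were 5 days old and belonged to the wild type (WT), to line S, labelled as overexpressing the phytoglobin gene ZmPgb1.1, or to line A, in which the same gene was down-regulated. Roots stood in liquid medium with air (0 h, normoxic) or were kept for 12 h with 4% oxygen (hypoxic), so that each line has a 0 h and a 12 h group of 3 libraries, written as WT_0h, A_12h and so on. With no library from air at 12 h, the effects of low oxygen and of time in the medium cannot be told apart. The sources used here do not give the number of transformation events behind a line, the promoter of its transgene or the number of plants in a library. In such bulk tissue, fewer cells of a type and less RNA per cell cannot be told apart.

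The quiescent centre is a small group of rarely dividing cells that keeps the surrounding stem cells of the root tip in an undifferentiated state. Phytoglobins are plant hemoglobins that scavenge nitric oxide, a signal that accumulates when oxygen is short, and plants with more or less of them are used to study how tissues withstand low oxygen. Genes are given here by the ID of the deposited table, with the ending RefGen_V4 left out. None of the 98 IDs could be paired with a name, so nothing is said of what these genes do. The marker genes of the quiescent centre and the level of ZmPgb1.1 were not analysed here for the same reason.

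Total counts ran from 48130771 to 57558291 in the 3 libraries and from 35441975 to 89759585 in the other 15. The 3 libraries that define the group resembled each other across genes: over all IDs, each had its 2 highest Spearman correlations with the other members of the trio (0.9901 to 0.9904 for the second nearest library) and at most 0.9656 with any other library. This is a description with no test. They do not share a label. A_0h replicate 3, which carries the same label as replicates 1 and 2, was nearest to A_12h, and S_12h replicate 3 was nearest to A_0h. In total 6 libraries, 1 of each group, had both nearest libraries under another label: WT_0h replicate 2, WT_12h replicate 3, S_0h replicate 3, S_12h replicate 3, A_0h replicate 3 and A_12h replicate 3. The low levels thus do not follow the A_0h label, and counts of called genes and the fold changes of named genes are given with and without these libraries.

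The 98 genes were lowered, not silent, in the 3 libraries. None had 0 counts in any library. Their summed level was 559 CPM in S_12h replicate 3, 569.9 CPM in A_0h replicate 1 and 571 CPM in A_0h replicate 2. In the other 15 libraries the sum ran from 2449 to 2810 CPM with a median of 2686 CPM, and A_0h replicate 3 held 2756 CPM. As a share of all counts this was 0.0559% to 0.0571% in the 3 libraries and 0.245% to 0.281% elsewhere. The lowest count of any of the genes was 7, for Zm00001d048635 in A_0h replicate 1, which is 0.123 CPM with an exact 95% Poisson interval of 0.0493 to 0.253 CPM that covers counting error only. For 97 of the 98 genes every one of the 3 libraries held at least 30 counts.

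**Figure D1:**
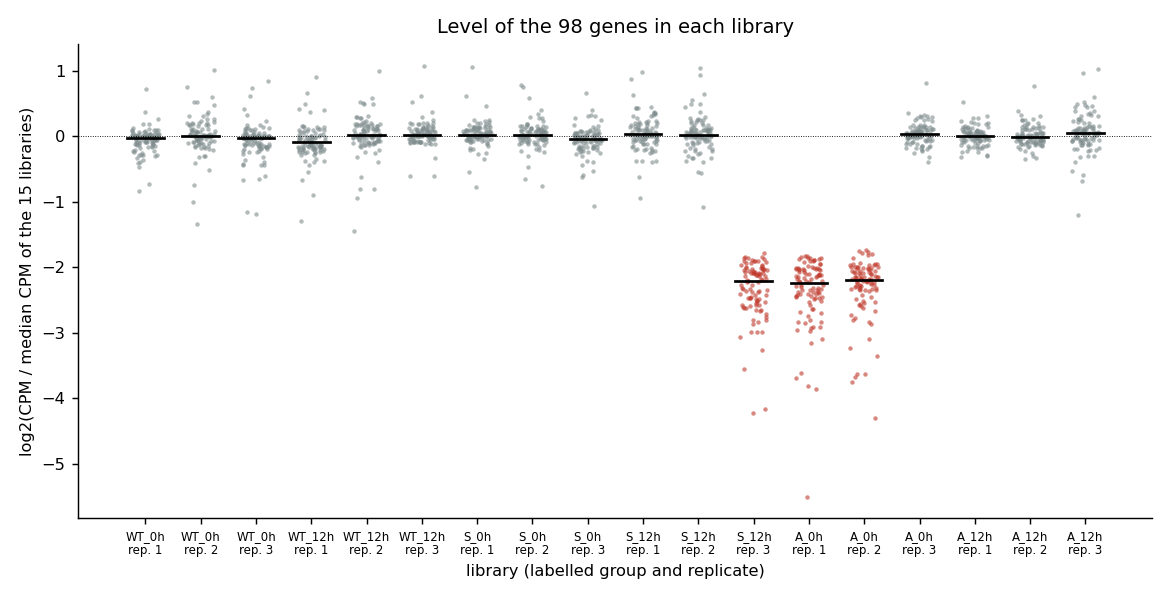
Each point is 1 of the 98 genes in 1 library, as log2 of its CPM over its median CPM in the 15 libraries, with a black bar at the median of the genes. The 3 libraries of the rule (red) have medians of -2.22, -2.25 and -2.19, and the other 15 (grey) have medians between -0.10 and 0.05.

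Most of the genes had a gap not far above the limit of 3 times. The rule sets the lower end of this range, so the likeness in size is not read as a property of the genes. The ratio of the median of the 15 libraries to the highest of the 3 had a median of 4.24 over the 98 genes, with quartiles at 3.86 and 4.99. It lay under 4 in 32 genes, from 4 to under 5 in 41, from 5 to under 10 in 22 and at 10 or more in 3. Over all 14112 IDs with at least 3 CPM in the 15 libraries, the ratio of the median of the 15 to the median of the 3 had a median of 1.01, against 4.63 over the 98 genes, which the rule fixed. The 98 genes were of moderate abundance: their median over the 15 libraries was 17.8 CPM in the middle of the list, against 28.9 CPM for the 14112 IDs, and 1 gene exceeded 100 CPM.

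**Figure D2:**
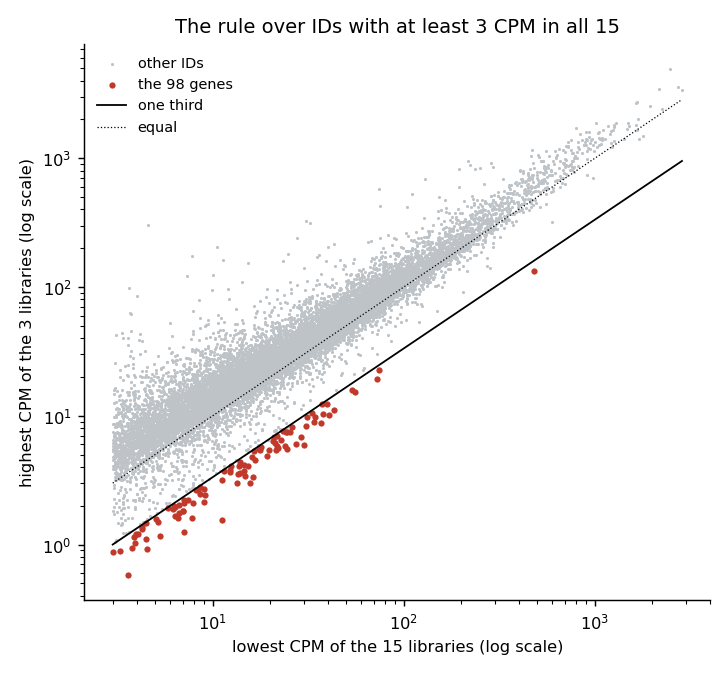
Each point is 1 of the 14112 IDs with at least 3 CPM in all of the 15 libraries, placed by its lowest CPM over the 15 and its highest CPM over the 3 libraries, both on log scales. The 98 genes (red) lie below the solid line where the 3 libraries are 3 times lower, and the dotted line marks equal values.

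Genes just inside and outside the rule show where it divides a continuous range. Zm00001d037427 and Zm00001d030902 were inside, with a lowest value of the 15 that was 3.03 and 3.04 times the highest of the 3. Zm00001d043581 and Zm00001d024710 were outside, at 2.998 and 2.99 times. By level, Zm00001d010653 with 3.01 CPM and Zm00001d008854 with 3.29 CPM in the lowest of the 15 were inside, while Zm00001d035373 with 2.92 CPM and Zm00001d008527 with 2.72 CPM were outside. A gap of 2 times instead of 3 would take in 224 genes, and one of 5 times only 5.

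Zm00001d013125 had the widest gap by the ratio of the median of the 15 to the highest of the 3, at 12.8. It measured 1.14 and 1.25 CPM in A_0h replicates 1 and 2 and 0.893 CPM in S_12h replicate 3. In the same labelled groups, A_0h replicate 3 held 17.3 CPM and S_12h replicates 1 and 2 held 14.7 and 12.6 CPM. The gene also varied among the other libraries, with 9.61, 22.2 and 7.11 CPM in WT_0h, 21.2, 23.0 and 16.2 CPM in WT_12h, 16.9, 17.1 and 10.6 CPM in S_0h and 15.96, 15.8 and 12.7 CPM in A_12h. The 2 low libraries of A_0h thus stood below every WT, S_0h and A_12h library, and A_0h replicate 3 did not.

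Zm00001d020401 came next, with a ratio of 12.2. It held 1.56 and 1.55 CPM in A_0h replicates 1 and 2 and 1.02 CPM in S_12h replicate 3, against 16.3 CPM in A_0h replicate 3 and 19.1 and 19.4 CPM in S_12h replicates 1 and 2. The remaining groups measured 19.2, 19.3 and 31.6 CPM (WT_0h), 20.5, 19.1 and 12.4 CPM (WT_12h), 11.1, 11.2 and 23.7 CPM (S_0h) and 18.8, 18.5 and 18.2 CPM (A_12h). Its lowest value in the 15 libraries, 11.1 CPM in S_0h replicate 1, was 7.15 times the highest of the 3, the widest such gap among the 98 genes.

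The most abundant of the genes was Zm00001d048373. Its level was 132 and 129 CPM in A_0h replicates 1 and 2 and 123 CPM in S_12h replicate 3. A_0h replicate 3 held 633 CPM, S_12h replicates 1 and 2 held 610.0 and 632 CPM, and A_12h held 606, 602 and 619.8 CPM. WT_0h held 511, 485 and 481 CPM, WT_12h 496, 504 and 542 CPM and S_0h 548, 531 and 523 CPM. Every library outside the 3 thus held at least 481 CPM, and those of WT and S_0h all lay below those of A_12h.

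Zm00001d030114, next in abundance, measured 22.7 and 22.6 CPM in A_0h replicates 1 and 2 and 21.2 CPM in S_12h replicate 3. A_0h replicate 3 held 89.0 CPM, and S_12h replicates 1 and 2 held 81.4 and 79.7 CPM. It was at 103, 101 and 99.1 CPM in WT_0h, 98.8, 103 and 88.8 CPM in WT_12h, 95.6, 91.3 and 101 CPM in S_0h and 87.6, 85.6 and 73.9 CPM in A_12h. Outside the 3 libraries, S_12h and A_12h lay below all of WT_0h, where those of Zm00001d048373 lay above it.

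**Figure D3:**
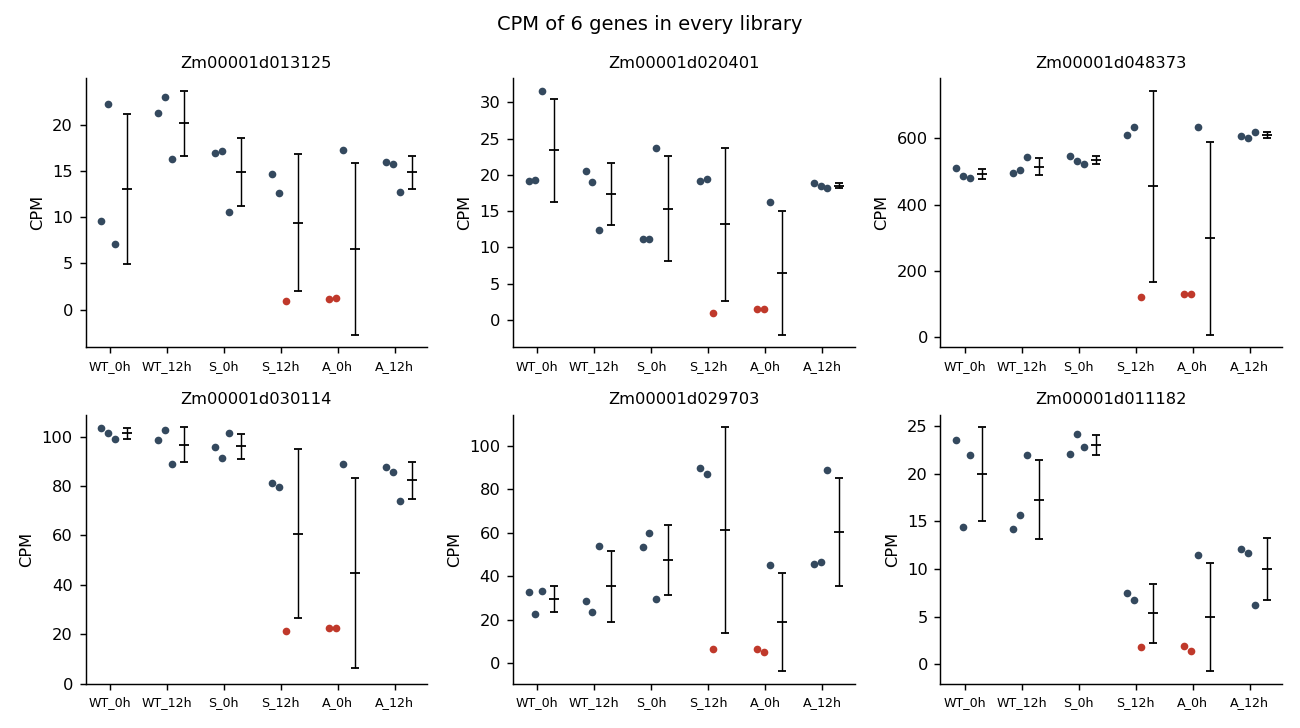
CPM of 6 of the 98 genes in every library, grouped by label, with A_0h replicates 1 and 2 and S_12h replicate 3 in red, the other libraries in blue, and the mean ± SD of the 3 libraries of a group beside them. In A_0h and S_12h the red points lie below the remaining points of the same label for every gene shown.

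Within the trio the genes were at like levels. The highest of the 3 libraries was a median of 1.21 times the lowest over the 98 genes, and it was at most 1.5 times in 89 of them. Over all 14112 IDs the same ratio had a median of 1.08, in IDs that were on the whole more abundant. A_0h replicate 1 held the lowest value of the 3 for 32 genes, A_0h replicate 2 for 29 and S_12h replicate 3 for 37. That all 3 libraries were low for every gene was fixed by the rule, which bounds the highest of them. The widest difference inside the trio was that of Zm00001d048635, at 0.123 and 0.452 CPM in A_0h and 0.582 CPM in S_12h replicate 3, a ratio of 4.74 that rests on few counts.

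Among the 15 libraries most of the genes were even. The highest library exceeded the lowest by a median of 1.42 times over the 98 genes and by a median of 1.52 times over the 14112 IDs, and the coefficient of variation had medians of 10.4% and 12.8%. The rule bounds the lowest of the 15 libraries and so bears on this evenness, which is therefore not read as a property of the genes. The highest exceeded the lowest by more than 2 times in 15 of the 98 genes (15.3%), beside 19.1% of the 14112 IDs. It did so by more than 3 times in 7 of the 98 (7.14%), beside 6.29% of the IDs. The lowest of the 15 fell in WT_12h replicate 1 for 18 genes, in WT_0h replicate 3 for 16, and in WT_12h replicate 3 for 0.

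The widest ranges among the 15 libraries were those of Zm00001d029703 and Zm00001d011182, and they ran in opposite directions. Zm00001d029703 measured 32.7, 22.8 and 33.5 CPM in WT_0h, 28.7, 23.7 and 53.9 CPM in WT_12h and 53.5, 59.98 and 29.5 CPM in S_0h. Its level was 89.8 and 87.2 CPM in S_12h replicates 1 and 2, 45.2 CPM in A_0h replicate 3 and 45.6, 46.6 and 89.1 CPM in A_12h. The 3 libraries of the rule held 6.49, 5.35 and 6.52 CPM, below every other library. A_12h replicate 3 lay with S_12h replicates 1 and 2, and S_0h replicate 3 lay with WT_0h.

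Zm00001d011182 measured 23.6, 14.4 and 22.0 CPM in WT_0h, 14.1, 15.7 and 22.0 CPM in WT_12h and 22.0, 24.1 and 22.8 CPM in S_0h. It was at 7.44 and 6.78 CPM in S_12h replicates 1 and 2, at 11.5 CPM in A_0h replicate 3 and at 12.1, 11.6 and 6.21 CPM in A_12h. In A_0h replicates 1 and 2 and S_12h replicate 3 it was at 1.89, 1.41 and 1.81 CPM. Here S_12h lay below WT and S_0h in each of its libraries, and the trio lowest of all.

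How the 98 genes varied with line and hypoxia was tested among the libraries that the rule did not set apart. A negative binomial model (edgeR's quasi-likelihood test) was fitted to all genes in 14 libraries: WT_0h, WT_12h, S_0h and A_12h with 3 each and S_12h replicates 1 and 2. A gene was called where its Benjamini-Hochberg adjusted p over all 20599 genes tested was under 0.05, and all 98 genes were among those tested. In line S, 15 of the 98 genes were called between 0 h and 12 h of hypoxia, 6 higher and 9 lower, where 36.1% of all genes tested were called. Between S_12h and WT_12h 16 were called, 8 in each direction, against 35.7% of all genes tested. Between A_12h and WT_12h 7 were called, 3 higher and 4 lower, against 22.7% of all genes tested. None was called between WT_12h and WT_0h or between S_0h and WT_0h, where 0% of all genes were called by edgeR. At an unadjusted p under 0.05 there were 1 and 4 of the 98 genes, beside 745 and 648 of all 20599 genes tested. DESeq2 and limma-voom also called 0 of the 98 genes in both. The share of all genes that these methods called is not given, so this is not read as a result about the 98 genes.

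The shares of the 98 genes called, 15.3%, 16.3% and 7.14%, were below those of all genes tested. Since the rule limits how low a gene can fall in any of the 15 libraries, this difference is not read as a result. The genes did not move as a block: the median log2 fold change of the 98 was 0.01 for S_12h against S_0h, 0.04 for S_12h against WT_12h and -0.02 for A_12h against WT_12h, beside -0.02, -0.01 and 0.02 over all genes tested. Comparisons with S_12h share its libraries, and both comparisons at 12 h share WT_12h.

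**Figure D4:**
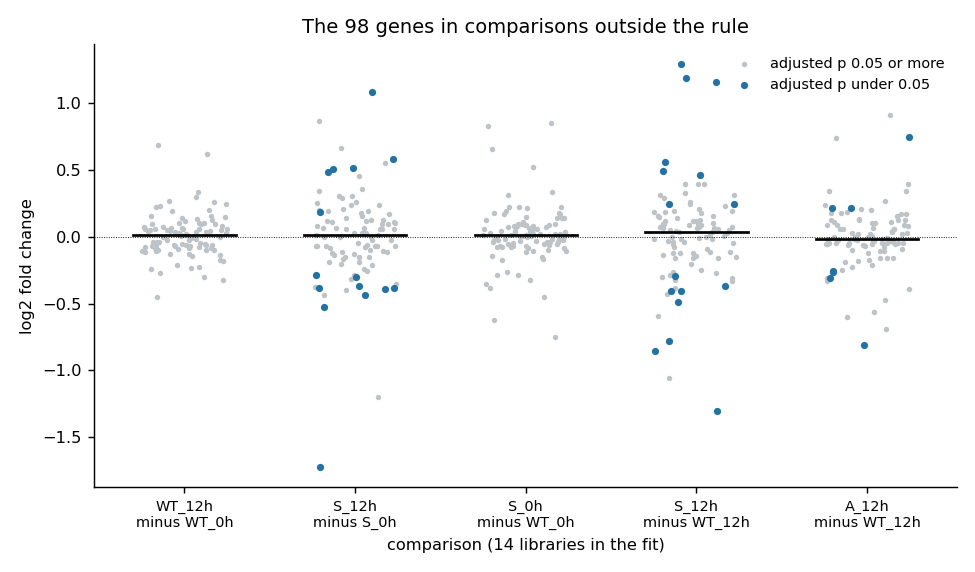
Log2 fold change of each of the 98 genes in 5 comparisons fitted to 14 libraries that leave out the 3 libraries of the rule and A_0h replicate 3, with a black bar at the median. Genes with an adjusted p under 0.05 are blue, others grey, and blue points lie on both sides of 0 in the 3 comparisons that have any.

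In line S under hypoxia, Zm00001d011182 fell by the most among the called genes, with a log2 fold change of -1.72 (SE 0.30, edgeR adjusted p = 0.00213). This call held whichever 1 of the 14 libraries was left out. Zm00001d010143 fell from 10.03, 10.5 and 8.86 CPM in S_0h to 7.34 and 6.56 CPM in S_12h replicates 1 and 2 (log2 fold change -0.52, SE 0.14, edgeR adjusted p = 0.0114), a call lost without S_12h replicate 2 (adjusted p = 0.106). Zm00001d043540 rose from 17.8, 17.6 and 12.1 CPM to 32.2 and 36.3 CPM (log2 fold change 1.08, SE 0.22, edgeR adjusted p = 0.00421), and this call too held without any 1 library. Zm00001d051565 was at 12.5, 11.5 and 12.1 CPM in S_0h and at 20.1 and 16.7 CPM in S_12h (log2 fold change 0.58, SE 0.20, edgeR adjusted p = 0.039). Its call was lost without WT_12h replicate 1 (0.0515), without S_0h replicate 1 (0.072), 2 (0.0984) or 3 (0.0731), without S_12h replicate 1 (0.241) or 2 (0.0737), and with the replicate block (0.0728). For each of these 4 genes S_12h replicates 1 and 2 lay outside the range of S_0h. S_12h replicate 3, which the rule set apart, was below S_0h for all 4, so that the labelled groups overlap for the 2 genes that rose.

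At 12 h, line S differed from WT at Zm00001d029703, which had a log2 fold change of 1.29 (SE 0.40, edgeR adjusted p = 0.0278), although WT_12h replicate 3 held 53.9 CPM of it where the other WT_12h libraries held 28.7 and 23.7 CPM. Leaving that library out gave a log2 fold change of 1.72, and the call was lost without WT_12h replicate 1 (0.0847) or 2 (0.0863), S_12h replicate 1 (0.106) or 2 (0.1), or with only both compared groups in the fit (0.0524). Zm00001d010442 was at 16.4, 14.8 and 40.5 CPM in WT_12h and at 54.6 and 56.1 CPM in S_12h (log2 fold change 1.19, SE 0.42, edgeR adjusted p = 0.0465). Over 22 alternative fits, by other methods, settings or sets of libraries, this call was kept in 6 and lost in 16. Among the fits that left 1 library out, its call held only without WT_12h replicate 3 (log2 fold change 1.79) or S_0h replicate 3, and was lost without each of the other 12 libraries (adjusted p from 0.0521 to 0.153). Zm00001d011182 was lower in S_12h (log2 fold change -1.31, SE 0.30, edgeR adjusted p = 0.00639), a call lost without S_12h replicate 2 (adjusted p = 0.0595). Zm00001d018086 was at 25.5, 25.5 and 18.1 CPM in WT_12h and at 13.8 and 12.3 CPM in S_12h (log2 fold change -0.85, SE 0.25, edgeR adjusted p = 0.019). That call was lost in the fits lacking WT_12h replicate 1 (adjusted p = 0.0572), WT_12h replicate 2 (0.0572), S_12h replicate 1 (0.0761) or S_12h replicate 2 (0.128).

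Line A differed from WT at 12 h by smaller amounts. Zm00001d043540 measured 13.0, 14.8 and 17.4 CPM in WT_12h and 21.2, 20.7 and 35.6 CPM in A_12h (log2 fold change 0.75, SE 0.20, edgeR adjusted p = 0.0233). The value of 35.6 CPM belongs to A_12h replicate 3, without which the log2 fold change was 0.46 and the call was lost (adjusted p = 0.0572), as it was without WT_12h replicate 1 (0.0917) or 2 (0.0781). Zm00001d034075 measured 13.7, 14.1 and 15.7 CPM in WT_12h and 17.4, 17.2 and 16.9 CPM in A_12h (log2 fold change 0.21, SE 0.07, edgeR adjusted p = 0.0395), a call lost in 10 of the 14 fits without 1 library (adjusted p from 0.051 to 0.144) and kept without WT_0h replicate 2, WT_12h replicate 3, S_0h replicate 3 or A_12h replicate 3.

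Zm00001d011182 had a log2 fold change of -0.81 between A_12h and WT_12h (SE 0.25, edgeR adjusted p = 0.0401), also lost in 10 of 14 such fits (0.0511 to 0.109) and kept without WT_0h replicate 1 or 2 or A_12h replicate 1 or 2. Zm00001d020472 was at 22.7, 25.2 and 21.5 CPM in WT_12h and at 19.7, 19.7 and 17.9 CPM in A_12h (log2 fold change -0.31, SE 0.09, edgeR adjusted p = 0.0333), a call lost without WT_12h replicate 1 (0.0827) or 2 (0.138) or A_12h replicate 1 (0.0535), 2 (0.0529) or 3 (0.0815). These 4 genes had separate ranges in WT_12h and A_12h. Over the 22 alternative fits the call was lost in 14 for Zm00001d034075 and in 14 for Zm00001d011182. It was lost in 7 for Zm00001d020472 and in 5 for Zm00001d043540.

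The 2 most abundant genes were called in all 3 of these comparisons, in opposite directions and by small amounts. Zm00001d048373 was higher, with log2 fold changes of 0.19 for S_12h against S_0h (edgeR adjusted p = 0.0141), 0.24 for S_12h against WT_12h (0.00424) and 0.21 for A_12h against WT_12h (0.0078). The first was lost without S_12h replicate 1 (0.0525) or 2 (0.126), the second without S_12h replicate 2 (0.0538), and the last held whichever library was left out. With all 18 libraries in the fit, which adds S_12h replicate 3 at 123 CPM, the first and second turned to -0.26 and -0.20 and were not called. The call for A_12h against WT_12h was lost with only those groups in the fit. Zm00001d030114 was lower, with log2 fold changes of -0.29 (edgeR adjusted p = 0.0275), -0.30 (0.0245) and -0.26 (0.0358). Over the 22 alternative fits its calls were lost in 4, 5 and 8, in the same order. These calls were lost without S_12h replicate 1 or 2 in all 3, and also without S_0h replicate 3 in S_12h against S_0h, WT_12h replicate 1 or 2 in both comparisons at 12 h and A_12h replicate 2 or 3 in A_12h against WT_12h (adjusted p from 0.0502 to 0.141 over these fits).

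Whether hypoxia changed the genes unlike in line S and in WT was tested by an interaction term of the same fit, a comparison chosen after the data were seen. It called 3 of the 98 genes, where 11.9% of all genes tested were called, and in all 3 the response was more negative in line S. The count changed when 1 library was left out and was 24 with the 10 libraries described next. The share of all genes called by this term in those fits is not given, so these counts are not read as a result. Zm00001d048217 is the example with the smallest p: WT_0h held 28.5, 29.0 and 29.98 CPM, WT_12h 29.96, 29.8 and 33.2 CPM, S_0h 32.0, 31.0 and 30.9 CPM and S_12h replicates 1 and 2 held 24.9 and 24.2 CPM (difference -0.45 on the log2 scale, SE 0.09, edgeR adjusted p = 0.0171). The call was lost without S_12h replicate 1 (0.0737) or 2 (0.0926).

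Leaving out the libraries whose nearest neighbours carry another label raised these counts, and with them the counts of all genes. With 10 libraries, 2 per group, 20 of the 98 genes were called between WT_12h and WT_0h, 10 in each direction, beside 29.2% of all genes tested. For S_12h against S_0h 34 were called, beside 56.1% of all genes. For S_0h against WT_0h 14 were called, beside 19.8%, for S_12h against WT_12h 41, beside 59.7%, and for A_12h against WT_12h 28, beside 47.6%. The named genes kept their calls and directions in this fit (edgeR adjusted p from 1.03e-10 to 0.03625). Because libraries were left out by their likeness in the same counts, that choice itself narrows the spread within groups. These calls and p-values are therefore no separate support for the named changes. For S_12h against S_0h the log2 fold changes were -1.715 for Zm00001d011182, -0.57 for Zm00001d010143, 0.94 for Zm00001d043540, 0.61 for Zm00001d051565, 0.19 for Zm00001d048373 and -0.23 for Zm00001d030114. For S_12h against WT_12h they were 1.72 for Zm00001d029703, 1.79 for Zm00001d010442, -1.10 for Zm00001d011182, -1.003 for Zm00001d018086, 0.28 for Zm00001d048373 and -0.36 for Zm00001d030114. For A_12h against WT_12h they were 0.57 for Zm00001d043540, 0.28 for Zm00001d034075, -0.36 for Zm00001d011182, -0.32 for Zm00001d020472, 0.24 for Zm00001d048373 and -0.25 for Zm00001d030114. The change of Zm00001d011182 in line A was thus smaller than the -0.81 of the 14 libraries, and those of Zm00001d029703 and Zm00001d010442 in line S were larger. The interaction term was -0.39 for Zm00001d048217.

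The 98 genes were in every case called at a lower share than all genes, which for the reason given above is not read as a result.

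The study's labelled comparisons that hold the 3 libraries are given for completeness, and nothing is read from them, since the rule used those libraries. With all 18 libraries in the fit, 0 of the 98 genes were called between A_0h and WT_0h, where 3.32% of all genes tested were called by edgeR. At an unadjusted p under 0.05 there were 29 of the 98 genes and 4754 of all 20945 genes tested. For Zm00001d048373 the groups overlapped: it averaged 298 ± 290 CPM in A_0h and 492 ± 16.3 CPM in WT_0h (SD, n = 3), with 2 libraries of A_0h far below WT_0h and 1 above it. Of the 98 genes 0 were also called between A_12h and A_0h (0% of all genes tested), between S_12h and S_0h (8.7%) and between S_12h and WT_12h (11.3%). At an unadjusted p under 0.05 these comparisons held 12, 1 and 1 of the 98 genes, beside 4021, 6016 and 6185 of all 20945 genes tested. Without the 6 libraries nearest to another label, A_0h consists only of the 2 libraries that chose the genes, so the direction was fixed by the choice and the counts are no test of it. All 98 were then called lower in A_0h than in WT_0h (49.2% of all genes called in either direction) and higher in A_12h than in A_0h (59.5%).

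Most of the 98 genes stood alone by ID number, and no run was longer than 2 genes. Numbers following the letters Zm00001d were compared, and a run was taken as a chain of the genes whose numbers differ by at most 5. There were 5 runs, all of them pairs, and the other 88 genes were single, with a median distance of 154.5 numbers (over all 98) to the nearest of the others. No 2 of the genes had directly successive numbers. The 98 genes were spread over the whole range of numbers: in 11 stretches of 5000 numbers there were between 2 and 18 of them, which is 0.150% to 1.35% of the IDs with at least 3 CPM in the 15 libraries.

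The 5 pairs are given in full, as the levels in the 15 libraries differ within most of them. Zm00001d003872 and Zm00001d003875 had medians over the 15 libraries of 40.1 and 15.04 CPM and over the 3 libraries of 9.54 and 3.64 CPM. Zm00001d024973 and Zm00001d024975 had medians of 9.82 and 7.69 CPM against 1.79 and 1.70 CPM. Zm00001d029703 and Zm00001d029705 had medians of 45.6 and 19.7 CPM against 6.49 and 5.33 CPM, and the first ranged from 22.8 to 89.8 CPM among the 15 libraries where the second ranged from 17.6 to 22.8 CPM. The levels of these neighbours thus differed in the libraries outside the trio as well. Beside the last pair, Zm00001d029706 had a median of 0 CPM in both sets of libraries. Zm00001d029707 was also lower in the 3 libraries, at a median of 7.49 against 15.1 CPM, a ratio of 2.01, but its highest value in the 3, 8.21 CPM, came close to its lowest in the 15, 8.31 CPM.

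Zm00001d008854 and Zm00001d008856 had medians of 4.49 and 46.6 CPM over the 15 libraries against 0.625 and 9.27 CPM over the 3. The ID between them, Zm00001d008855, was also lower in the 3 libraries, with at most 0.831 CPM against at least 2.71 CPM, and missed the rule only because its lowest level was under 3 CPM. The nearest IDs listed on either side, Zm00001d008853 and Zm00001d008858, did not show this gap, at medians of 2.64 and 27.2 CPM in the 3 libraries against 2.80 and 21.4 CPM in the 15, and neither did Zm00001d008852, at 4.24 against 3.57 CPM.

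Zm00001d048635 and Zm00001d048637 had the lowest relative levels of the pairs, with medians of 0.452 and 1.05 CPM in the 3 libraries against 5.58 and 13.6 CPM in the 15, ratios of 12.4 and 12.9. Zm00001d048634, which precedes them, was at 35.4 against 69.9 CPM, a ratio of 1.97, and did not meet the rule. Zm00001d048633 had a median of 0 CPM in both sets of libraries.

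Of the 98 genes, 10.2% had another of them within 5 numbers, beside 1.5% of the other 14014 IDs with at least 3 CPM in the 15 libraries. Within 20 numbers the shares were 18.4% and 6.22%, and within 500 numbers 85.7% and 78.3%. These shares are descriptions without a test. IDs next to the genes were mostly at equal levels: among the 70 other IDs within 2 numbers, the ratio of the median of the 15 to the median of the 3 had a median of 0.995, and 6 of them had a ratio of at least 2, or 8.57% where the share over all 14014 other IDs was 3.14%.

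**Figure D5:**
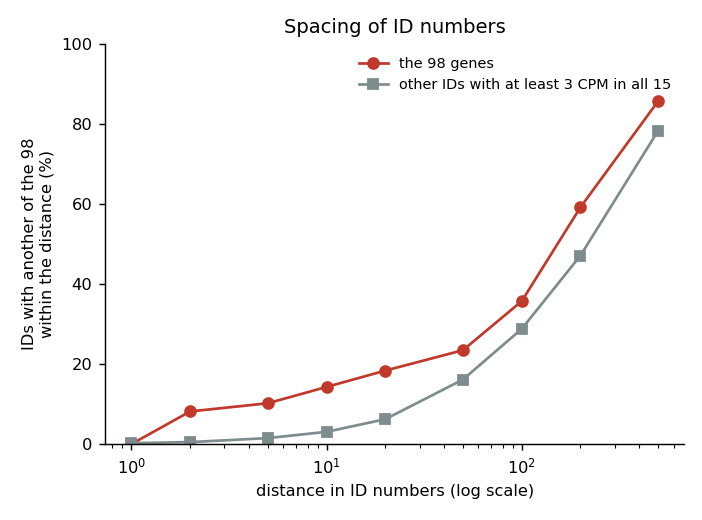
Share of IDs that have another of the 98 genes within a given distance in ID numbers (log scale), for the 98 genes (red) and for the other IDs with at least 3 CPM in all of the 15 libraries (grey). The red line is at 10.2% at a distance of 5 and the grey line at 1.5%, and both exceed 78% at 500.

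Genes set apart in the opposite direction were more numerous and stood farther out. By the same limits, 253 genes were high only in A_0h replicates 1 and 2 and S_12h replicate 3. They are 1.67% of the 15123 IDs with at least 3 CPM in the 3 libraries, where the 98 are 0.694% of 14112 IDs. Of the 253 genes, 198 were at least 5 times above every other library (1.31% of the 15123 IDs). Of the 98 genes, 5 were at least 5 times below (0.0354% of the 14112 IDs). A share of 9.09% of the 253 genes had another of them within 5 ID numbers, and the share among other IDs was not computed for this list. The rule applied to each of the other 5 trios of libraries that resemble each other gave 1, 3, 3, 6 and 21 low genes. The trio of WT_0h replicate 2 and WT_12h replicates 1 and 2 gave the 21, and that of S_12h replicates 1 and 2 and A_12h replicate 3 gave the 6. Genes high only in a trio numbered 3 in the first of these and 178 in the second. They numbered 64 in A_0h replicate 3 with A_12h replicates 1 and 2, where 1 gene was low. In the remaining trios, with 3 low genes each, they numbered 0 and 2. These numbers are descriptions of the same 18 libraries, with no test of their difference.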

How the data were processed

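Values are whole-number read counts per gene from total RNA, deposited by the authors without normalisation. The tools named in the submitters' processing notes are HISAT2 and featureCounts, with B73 RefGen_v4 as the build. The sources used here do not give versions, strand setting, treatment of reads with several matches or filters, so near-identical copies and overlapping or antisense genes are uncertain. All 18 columns match a title, and 0 columns belong to no sample. Group and replicate come from the titles. No label states that libraries of 1 group came from separate plants or cultures, so the spread behind the p-values may be technical.

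CPM used the column sum. Tests used edgeR 4.0.16 in R 4.3.3 on the counts, with filterByExpr, TMM scaling (factors of 0.975 to 1.02 over 18 libraries), 1 mean per group and robust dispersions. The 14-library fit left out A_0h and S_12h replicate 3. Each SE is the log2 fold change divided by the square root of its F value. The code of the fit was run on simulated counts with known changes in S_12h. No simulated library was made to resemble another label, so this is a check of the code only. Alternatives used DESeq2 1.42.0, limma-voom (limma 3.58.1), RLE, no filter, a replicate block, other sets of libraries and each library left out.

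The genes, the rule and the lists were chosen with earlier results of these data known. With no names for the IDs, the lists of low-oxygen, stem cell and root cap genes gave no result, and IDs were named by a fixed rule, at most 2 each: widest gap, highest level, widest range among the 15 libraries, the limits of the rule, and the largest called changes. All 5 pairs of neighbouring IDs, IDs within 2 numbers of them and the genes of the added comparison were named after their values were seen. No 2 libraries agreed within sampling noise (lowest chi-square per gene 3.93 over 153 pairs, where about 1 is a repeat count). A count of 3 corresponds to 0.0334 to 0.0846 CPM.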

Additional observations from a re-analysis of the deposited data

Results flagged for a closer look

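A total of 3 of the 98 genes were called for a response to hypoxia that differed between line S and WT. The call is that of the interaction term of the edgeR fit to 14 libraries, which was chosen after the data were seen. Of all genes tested, 11.9% were called by this term, so the count is not read as a result about the 98 genes. The difference on the log2 scale was -1.49 for Zm00001d011182 (edgeR adjusted p = 0.0339), -0.423 for Zm00001d004293 (0.0364) and -0.447 for Zm00001d048217 (0.0171). Zm00001d004293 measured 11.3, 11.3 and 12.0 CPM in WT_0h, 12.0, 11.9 and 12.1 CPM in WT_12h, 11.9, 11.7 and 11.9 CPM in S_0h and 9.11 and 9.37 CPM in S_12h replicates 1 and 2. Its call was lost in 10 of 14 fits without 1 library (adjusted p from 0.055 to 0.136) and kept without WT_12h replicate 3 or any 1 A_12h library. That of Zm00001d011182 was lost in 9 (0.0506 to 0.132) and kept without WT_0h replicate 2, WT_12h replicate 3 or any 1 A_12h library. Over all 19 alternative fits of this term the call was lost in 13 for Zm00001d004293 and in 10 for Zm00001d011182. In the 10-library fit the differences were -1.08 for Zm00001d011182 and -0.38 for Zm00001d004293. Groups of 3 libraries are too small for a check of single outlying samples.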

How the results depend on the processing

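The number of genes meeting the rule was 98 to 112 when any 1 library was left out and 119 without the 6 libraries nearest to another label. It was 224 with a gap of 2 times, 5 with 5 times, 59 with at least 10 CPM, 419 on medians and 0 when the 3 libraries labelled A_0h were set against the other 15. The number with a neighbour was 10 within 5 ID numbers, 0 within 1 and 18 within 20, and with gaps of 2 and 5 times it was 22 and 0. Called genes of the 98 without the libraries nearest to another label were 20 (WT_12h against WT_0h), 34 (S_12h against S_0h), 14 (S_0h against WT_0h), 41 (S_12h against WT_12h) and 28 (A_12h against WT_12h). With all 18 libraries, the 3 of the rule among them, S_12h against S_0h, S_12h against WT_12h and A_12h against WT_12h had 0, 0 and 0, beside 8.7%, 11.3% and 6.47% of all genes. With only the groups compared they had 24, 15 and 0, beside 47.0%, 38.7% and 5.28% of all genes called in the same fits. Without 1 library they ran from 6 to 18, 4 to 22 and 2 to 13, while the share of all genes called ran from 15.5% to 42.7%, 15.3% to 42.6% and 10.3% to 27.0%. S_12h against S_0h had 6 without S_12h replicate 1 or 2, and S_12h against WT_12h had 8 without WT_12h replicate 1, 6 without S_12h replicate 1 and 4 without S_12h replicate 2. A_12h against WT_12h had 2 without WT_12h replicate 1 or 2, 13 without WT_12h replicate 3 and 4 without S_12h replicate 1 or 2. A lone S_12h library was assumed to vary like the other groups. The share of all genes called also changed among these fits, over the ranges above. It is not given for each single fit, so these counts are not read as a result about the 98 genes. WT_12h against WT_0h and S_0h against WT_0h kept 0 without any 1 library. With the replicate block the 5 counts, in the order first given, were 0, 14, 0, 15 and 5, beside 0%, 34.1%, 0%, 35.1% and 19.96% of all genes. Deviations from the labelled group means had a median correlation of -0.03 over 45 pairs of same-numbered libraries and 0.006 over 90 pairs of other numbers. Of 18 libraries, 4 correlated best with their own number. Each group held a library nearest to another label, which enters these deviations, so they cannot show whether replicates were paired. Every named call was lost with all 18 libraries in the fit, and there Zm00001d048373 changed sign, to -0.26 for S_12h against S_0h and -0.20 for S_12h against WT_12h. No other named change reversed under the alternatives run. The cause of these differences was not tested.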
